A study of Mus musculus with 27 samples.

Results

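Dcn, Lum, Ogn, Bgn, Fmod, Postn, Tgfbi, Cthrc1, Fn1 and Fbln1 encode proteoglycans and glycoproteins that fibroblasts and other mesenchymal cells secrete into the extracellular matrix. These 10 genes, of 55487 in the deposited count table, were chosen by symbol, and their levels were followed across the optic stalk (OS) of control and Smarcc1-DCT-cKO mouse embryos. They matched 1 gene identifier each. The 10 genes and the gene lists below were chosen with earlier results of these data known. Their counts set beside the shares of all genes are therefore descriptions, not an independent test. The level of a gene is given in CPM, the usual count-per-million scale, on which the counts of every library add up to the same total.

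The OS is the neural tube that joins the eye cup to the forebrain and becomes the optic nerve. Dorsal OS, ventral OS and the axon-rich region were cut by laser capture from embryos at embryonic day 14, with 4 control and 5 mutant embryos, giving 27 libraries in 6 groups of region and genotype. Mutants carried Baf155 loxP/loxP together with Dct-Cre and the Z/EG reporter, and controls were littermates without Dct-Cre, all on a C57Bl6/J background. Baf155 is another name of Smarcc1, a core subunit of the SWI/SNF chromatin remodelling complexes. Dct-Cre acts in the pigmented lineage of the eye and in the stalk, so cells outside those lineages, mesenchyme among them, were not its stated target. Each library belonged to batch A, with 1 control and 3 mutant embryos, or to batch B, with 3 control and 2 mutant embryos.

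Small leucine-rich proteoglycans bind fibrillar collagen and set the thickness and spacing of its fibrils. Decorin (Dcn), biglycan (Bgn), lumican (Lum), fibromodulin (Fmod) and osteoglycin (Ogn, also called mimecan) belong to this family. Periostin (Postn), TGF-beta-induced protein (Tgfbi) and Cthrc1 are secreted glycoproteins made in quantity where matrix is being built or remodelled, while fibronectin (Fn1) and fibulin 1 (Fbln1) form networks that cells and other matrix proteins attach to. Around the eye these genes are best known from the mesenchyme that forms cornea, sclera and the sheath of the optic nerve. The OS itself is neuroepithelium with a basement membrane.

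Positions are given on mm10 with GENCODE M21 gene models. Dcn (chr10:97479609-97518143, plus strand, 9 merged exons) and Lum (chr10:97565128-97572703, plus strand, 3 merged exons) are neighbours on chromosome 10. Ogn lies at chr13:49608046-49624501, Tgfbi at chr13:56609523-56639562, Postn at chr3:54361109-54391037, Bgn at chrX:73483602-73495933 and Fmod at chr1:134037254-134048277, all on the plus strand. Cthrc1 is found at chr15:39076932-39087121 and Fbln1 at chr15:85205949-85286535, both on the plus strand, and Fn1 at chr1:71585520-71653200 on the minus strand. Of the exonic bases of Fn1, 2.50% are shared with Apol7d on the opposite strand, and no base of the 9 other genes is shared with another gene.

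RefSeq promoter sequences (GRCm38.p6) were given for 6 of the 10 genes. The 250 bases before the start site are shown for Ogn, which stood apart from the other members in the dorsal mutants, and for Postn and Bgn, which were among the members with the lowest dorsal mutant levels. All are on the plus strand, at chr13:49607765-49608014 for Ogn, chr3:54360857-54361106 for Postn and chrX:73483351-73483600 for Bgn. Another window was given for Postn, at chr3:54359017-54359266, and is not shown. It held none of the motifs searched and had a GC content of 40.4%. Capitals mark matches to the motifs named after the sequences.
Ogn: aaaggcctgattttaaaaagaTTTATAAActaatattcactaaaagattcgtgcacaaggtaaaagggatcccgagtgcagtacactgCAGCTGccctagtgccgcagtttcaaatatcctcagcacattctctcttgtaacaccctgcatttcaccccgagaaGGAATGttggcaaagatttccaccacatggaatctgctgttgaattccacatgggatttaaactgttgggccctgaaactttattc
Postn: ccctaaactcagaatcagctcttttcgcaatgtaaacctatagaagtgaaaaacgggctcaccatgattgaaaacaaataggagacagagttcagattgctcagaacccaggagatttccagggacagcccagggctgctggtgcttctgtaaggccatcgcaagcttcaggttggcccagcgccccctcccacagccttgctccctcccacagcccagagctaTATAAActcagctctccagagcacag
Bgn: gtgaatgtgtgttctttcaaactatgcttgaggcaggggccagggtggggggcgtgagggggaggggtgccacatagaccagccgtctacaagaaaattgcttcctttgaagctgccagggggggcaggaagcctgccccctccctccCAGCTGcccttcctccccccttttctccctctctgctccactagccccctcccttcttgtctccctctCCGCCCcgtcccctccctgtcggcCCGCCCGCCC
The motifs searched, on both strands, were TATAAA (the TATA box), TGANTCA (an AP-1 site), GGAATG (a TEAD site), CCAAT (the CCAAT box) and GGGCGG (the GC box). The E-boxes were CAGCTG, then the form with CATCTG and the form with CATATG, and the palindrome of SMAD proteins was GTCTAGAC. The Postn window shown held TATAAA with its first base 26 bases before the start site, and 12.4% of all 32817 windows of this length held that motif. In the Bgn window stood 3 GC boxes on the minus strand, starting 34, 10 and 6 bases before the start site with the last 2 overlapping, and 1 CAGCTG. A GC box was found in 32.7% of all windows and CAGCTG in 13.0%. The Ogn window held GGAATG, found in 12.6% of all windows, and CAGCTG, and its TATAAA matches on both strands overlap and start 229 and 227 bases before the start site. GC content was 42.0% in the Ogn window, 52.0% in the one shown for Postn and 64.4% in that of Bgn, against a median of 52.4% over all windows.

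The libraries held 10899418 to 33980417 counts, so 1 count equalled 0.0294 to 0.0917 CPM. A gene without a count could still have a level of 3 counts, which was 0.0883 to 0.275 CPM. The cDNA was amplified by PCR without molecular identifiers, so these limits cover counting error only. Smarcc1, the targeted gene, had 75.9 to 289 CPM in dorsal controls and 2.26 to 107 CPM in dorsal mutants, which overlapped. Its ventral and axon levels were 75.7 to 198 and 50.1 to 242 CPM in controls and 14.7 to 64.4 and 1.86 to 44.9 CPM in mutants, with no overlap. Markers of OS neuroepithelium were present in every group, with summed levels of 106 to 324 CPM in dorsal controls and 117 to 324 CPM in dorsal mutants. Within these sums single genes went both ways. Pax2 averaged 28.0 ± 18.3 CPM (SD) in dorsal controls and 2.94 ± 2.15 CPM (SD) in dorsal mutants, with an adjusted p of 0.938 by edgeR. Six3 rose from 45.4 to 84.3 CPM and Vax2 from 0.052 to 8.05 CPM. By antibody labelling the paper found Pax2 absent from the dorsal OS of mutants at this age.

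Dorsal control 3 stood apart from the other dorsal controls in these genes. For each member tested, the dorsal edgeR estimate or the ratio of means is therefore also given without it. The exact permutation tests, the DESeq2 calls, the marker lists and the other matrix lists include it. Dorsal control 3 held the highest level of all 27 libraries for 7 of the 10 genes, Dcn, Lum, Postn, Tgfbi, Cthrc1, Fn1 and Fbln1. Of the summed CPM of the 4 dorsal controls it held 74.9% for Postn, 68.6% for Tgfbi, 59.7% for Fn1, 59.6% for Dcn, 58.0% for Cthrc1, 50.8% for Fbln1 and 38.0% for Lum, where an equal share would be 25%. For Ogn its share was 21.7% and for Bgn 11.3%, and it had no count of Fmod. Dorsal control 1, from the other batch, was the lowest dorsal control for 8 of the 10 genes and the highest for Ogn and Fmod. In dorsal control 3 a count was seen for 10881 genes, against 13169, 16213 and 16266 genes in dorsal controls 1, 2 and 4. The part of this lower number in its levels was not tested. Dorsal control 3 also had the most mesenchyme marker RNA: the 11 markers summed to 8115 CPM there and to 896, 2307 and 1060 CPM in dorsal controls 1, 2 and 4. In these bulk pieces of tissue, fewer fibroblasts and less of this RNA per fibroblast cannot be told apart.

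**Figure D1:**
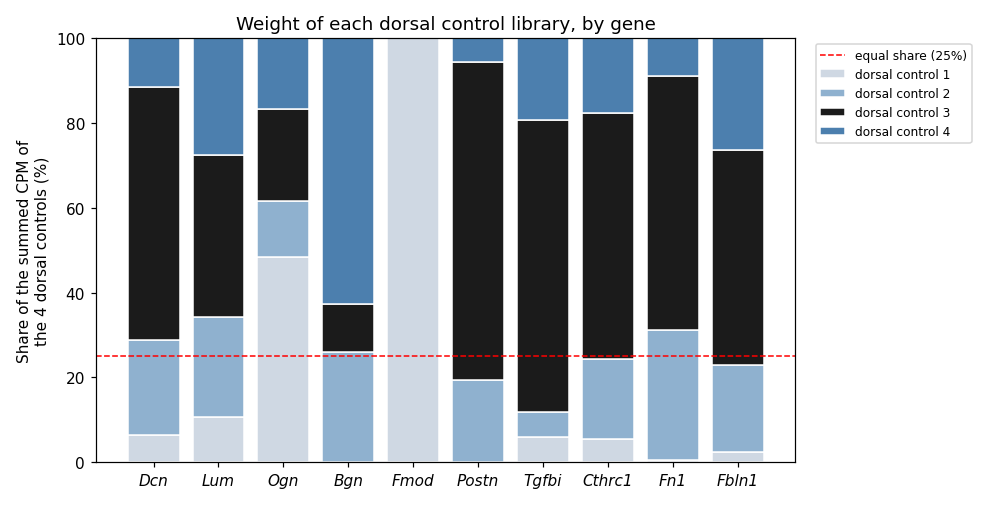
Share (%) of the summed CPM of the 4 dorsal controls that each of these libraries held, for the 10 genes, with dorsal control 3 in black and the dashed line at the equal share of 25%. Dorsal control 3 held 50.8% to 74.9% for 6 genes, 38.0% for Lum, and less than an equal share for Ogn, Bgn and Fmod.

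Among the proteoglycans, Dcn, which binds collagen and growth factors of the TGF-beta family, showed the clearest separation of the dorsal groups. Its levels in dorsal controls 1 to 4 were 176, 620, 1647 and 319 CPM, and in dorsal mutants 1 to 5 they were 39.1, 17.8, 11.9, 58.6 and 45.7 CPM. Every mutant lay below every control. The means were 691 ± 664 CPM (SD, n = 4) and 34.6 ± 19.5 CPM (SD, n = 5), a ratio of 19.96 that became 10.7 without dorsal control 3. On the log2 scale the edgeR estimate for mutants over controls was -3.64 ± 0.57 (SE, adjusted p of 0.103), and -3.04 ± 0.44 without dorsal control 3.

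Lum, a keratan sulfate proteoglycan of the cornea and other connective tissue, had 196, 427, 691 and 504 CPM in the dorsal controls. The dorsal mutants had 46.3, 20.2, 0, 25.2 and 112 CPM. These groups did not overlap either, and the controls were more even than for Dcn. The log2 fold change was -3.03 ± 1.08 (SE, adjusted p of 0.918 by edgeR), and the ratio of the means, 11.2, was 9.22 without dorsal control 3.

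Ogn went the other way. Dorsal controls had 84.9, 23.1, 38.2 and 29.5 CPM and dorsal mutants 172, 124, 361, 89.6 and 86.5 CPM. The groups did not overlap, but the lowest mutants lay just above dorsal control 1. The means were 43.9 ± 28.0 CPM (SD, n = 4) and 166 ± 114 CPM (SD, n = 5), 3.79 times as high in mutants. The edgeR log2 fold change was 1.49 ± 0.47 (SE) with an adjusted p of 0.918. Leaving out dorsal control 3 gave 1.61 ± 0.45, so this difference did not rest on that library.

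Bgn, the close relative of Dcn, had 0.208, 45.7, 20.002 and 111 CPM in the dorsal controls. The dorsal mutants had 0, 0.179, 0, 0 and 2.53 CPM. The groups overlapped only through dorsal control 1, the single dorsal control of batch A. The log2 fold change was -4.40 ± 2.65 (SE, adjusted p of 0.953 by edgeR), -4.61 without dorsal control 3 and -6.36 to -3.11 over the single libraries left out. Fmod was seen in 3 libraries, at 15.2 CPM in dorsal control 1 and at 0.367 and 0.212 CPM in dorsal mutants 1 and 3. With more than 10 counts in 1 library it did not pass the filter and was not tested.

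**Figure D2:**
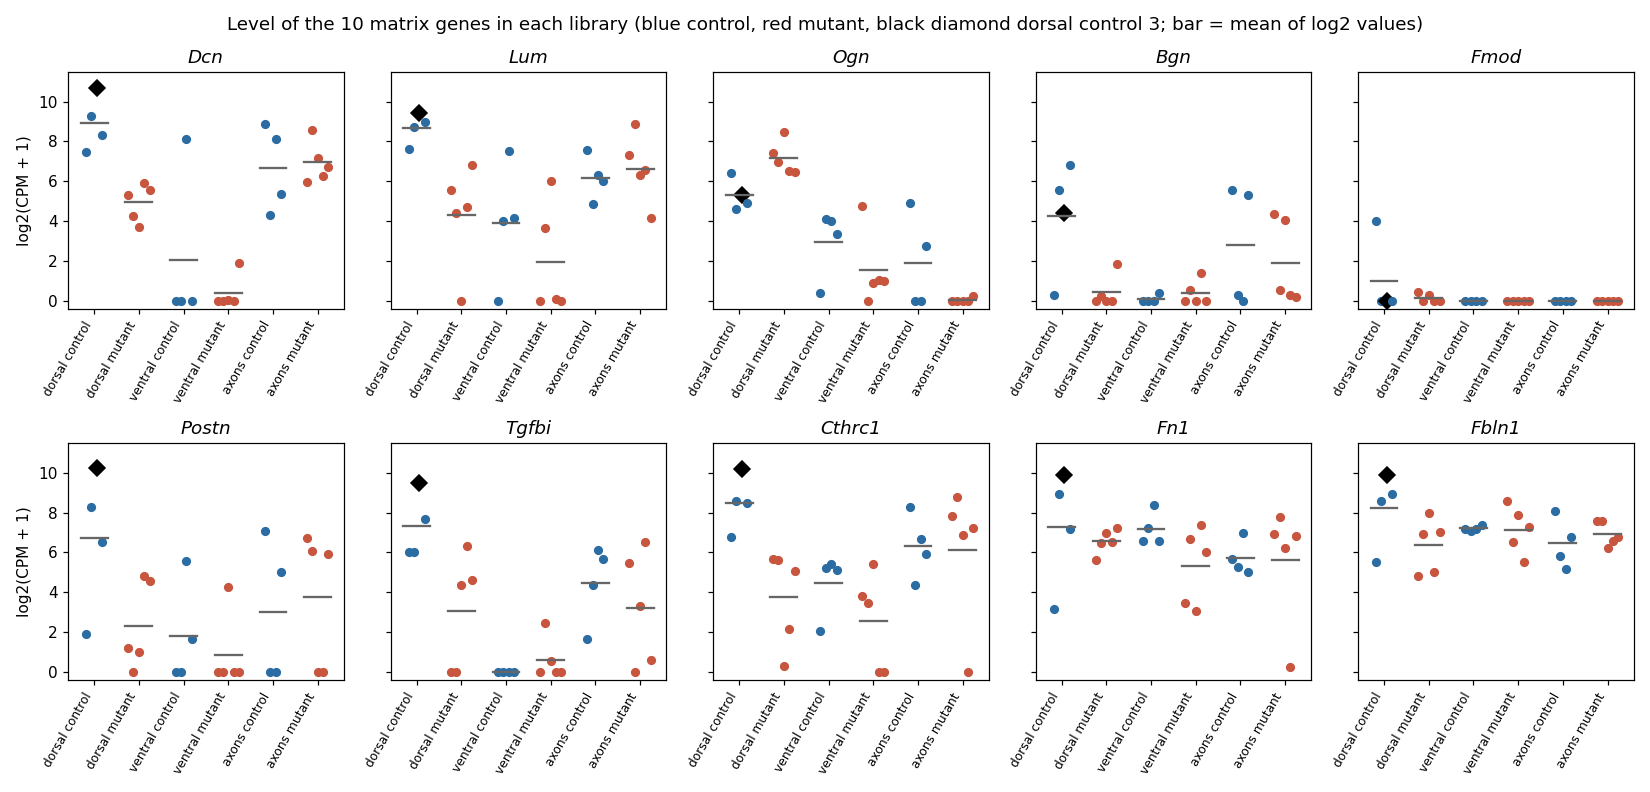
Level of each of the 10 genes, as log2(CPM + 1), in each of the 27 libraries, with controls in blue, mutants in red, dorsal control 3 as a black diamond and bars at the mean of the log2 values of a group. The dorsal mutants of Dcn, Lum and Cthrc1 all sit below the dorsal controls, those of Ogn all sit above, and dorsal control 3 tops 7 of the 10 panels.

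Of the 3 matrix glycoproteins linked to tissue building, Cthrc1, a secreted protein that limits collagen deposition and acts in Wnt signalling, separated the dorsal groups. Its dorsal controls had 109, 383, 1166 and 354 CPM and its dorsal mutants 49.9, 48.5, 0.212, 3.38 and 33.0 CPM. No mutant reached the lowest control. The log2 fold change was -4.09 ± 1.51 (SE, adjusted p of 0.918 by edgeR), and -3.36 ± 1.43 without dorsal control 3.

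Postn, which links collagen, fibronectin and integrins, had 2.79, 312, 1214 and 91.6 CPM in the dorsal controls. The dorsal mutants had 1.28, 0, 0.987, 27.4 and 22.9 CPM. Dorsal control 1 lay among the mutants and dorsal control 3 alone gave most of the control mean of 405 ± 555 CPM (SD, n = 4), so the ratio of the means went from 38.6 to 12.9 without it. The log2 fold change was -3.62 ± 1.16 (SE, adjusted p of 0.918 by edgeR) with all libraries and -2.52 ± 1.10 without dorsal control 3.

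Tgfbi, an integrin-binding protein abundant in the corneal stroma, had 63.4, 63.6, 729 and 207 CPM in the dorsal controls. The dorsal mutants had 0, 0, 19.4, 78.4 and 23.5 CPM. Dorsal mutant 4 lay above the lowest controls and the other mutants below. The log2 fold change was -2.93 ± 1.43 (SE, adjusted p of 0.918 by edgeR), and the ratio of the means, 10.95 with all libraries, was 4.58 without dorsal control 3.

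For the network-forming glycoproteins Fn1 and Fbln1 the direction of the dorsal difference was opposite in the 2 batches. Fn1 had 7.94, 493, 956 and 146 CPM in dorsal controls and 47.6, 88.5, 125, 89.8 and 147 CPM in dorsal mutants. The mutants thus lay close together while the controls spread from the lowest to the highest level of the region. The log2 fold change of -0.84 ± 1.27 (SE, adjusted p of 1 by edgeR) was 0.02 ± 1.09 without dorsal control 3, 0.81 without dorsal mutant 4 and 0.45 without dorsal mutant 5. Within batch A it was 3.45 and within batch B -2.17.

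Fbln1, a glycoprotein of basement membranes and elastic fibres, had 45.5, 378, 940 and 488 CPM in dorsal controls. Its dorsal mutants had 27.2, 122, 253, 31.5 and 132 CPM. The groups overlapped through dorsal control 1 alone. The log2 fold change was -1.67 ± 1.21 (SE, adjusted p of 0.999 by edgeR), -1.11 without dorsal control 3, -2.87 to -0.30 over the single libraries left out, 1.56 within batch A and -2.87 within batch B.

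Across the dorsal comparison the mean was lower in mutants for 9 of the 10 genes and higher for Ogn. Of the 9 genes tested edgeR called 0, where a call needed an adjusted p below 0.05 and a log2 fold change beyond 0.58 in either direction, against 0.00619% of the 16145 genes tested in each direction. At an unadjusted p under 0.05, 4 were lower and 1 higher, where 2.68% of all genes were lower and 2.68% higher. The median log2 fold change was -3.03 for the 9 genes and -0.04 for all genes tested. The groups did not overlap for Dcn, Lum and Cthrc1, which were lower in all mutants as were 1.61% of all genes, nor for Ogn, which was higher in all mutants as were 1.31% of all genes. DESeq2 called Dcn, Postn and Cthrc1 lower and Ogn higher, where it called 2.2% of all genes lower and 1.1% higher.

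Exact permutation tests of log2(CPM + 1), two-sided over all 126 splits of the 9 dorsal libraries, gave p = 0.00794 for Dcn, Cthrc1 and Ogn, which is the smallest p that these splits can give. The exact p was 0.0159 for Lum and Bgn, 0.0317 for Tgfbi, 0.0556 for Postn, 0.127 for Fbln1 and 0.619 for Fn1. Thus 5 genes were lower and 1 higher at an exact p under 0.05, against 3.98% and 3.68% of all genes. Adjusted over all genes tested, the permutation p-values were 0.450 to 0.967. Within batches, over 40 splits, Dcn, Lum, Cthrc1, Postn, Bgn and Ogn had the smallest possible exact p of 0.025, as did 2.09% of all genes that were lower and 1.92% that were higher.

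**Figure D3:**
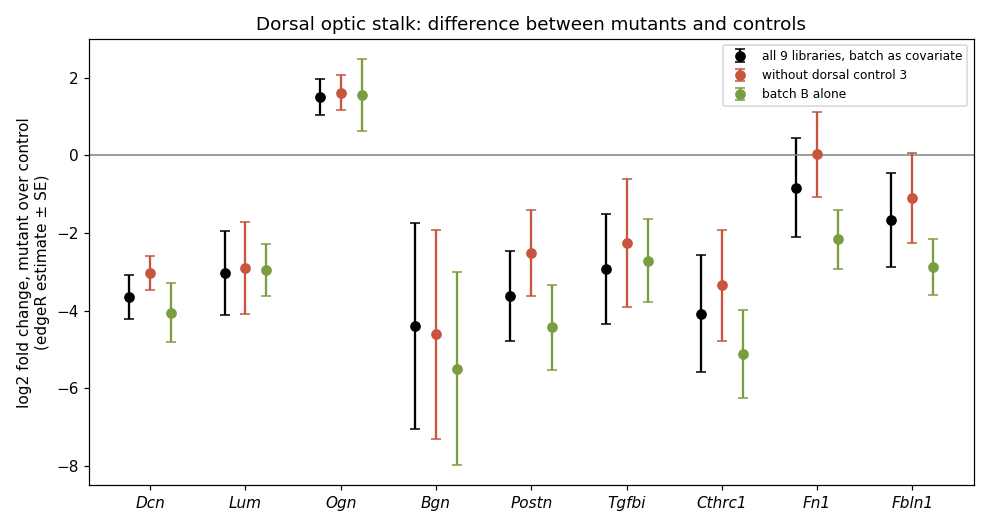
log2 fold change of dorsal mutants over dorsal controls (edgeR estimate ± SE) for the 9 genes tested, with all 9 libraries (black), without dorsal control 3 (red) and within batch B alone (green). Ogn lies above 0 in all 3 fits, Fn1 moves from -0.84 to 0.02 without dorsal control 3, and the other 7 genes stay below 0.

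The markers of mesenchyme and fibroblasts (among them Col1a1, Col1a2, Col3a1, Pdgfra, Pdgfrb, Twist1, Twist2, Prrx1, Foxc1 and Foxc2) moved with these results. All 10 markers that could be tested had lower estimates in dorsal mutants, 5 of them at an unadjusted p under 0.05, with a median log2 fold change of -4.01. Their summed level was 896 to 8115 CPM in dorsal controls and 19.1 to 217 CPM in dorsal mutants, with no overlap. Type I collagen Col1a1 averaged 335 ± 410 CPM (SD, n = 4) in dorsal controls and 4.61 ± 3.84 CPM (SD, n = 5) in dorsal mutants, an edgeR log2 fold change of -5.05 ± 0.84 (adjusted p of 0.103). Pdgfra, Foxc1, Foxc2 and Prrx1 were each at 0 in 3 of the 5 dorsal mutants, and Twist2 in all 4 dorsal controls and 4 mutants. The part of these markers in the results was not tested.

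Over the 27 libraries the log2 levels of the members followed the summed mesenchyme markers to different degrees. Pearson's r was 0.793 for Dcn, 0.744 for Lum, 0.705 for Postn, 0.647 for Cthrc1, 0.620 for Tgfbi and 0.616 for Bgn. For Fbln1 it was 0.355, for Fn1 0.279 and for Fmod 0.0947. Ogn, at r = -0.164, did not follow them, and among the marker lists its highest values were 0.724 with mural cell markers and 0.525 with melanin genes. These are descriptions over libraries that share embryos and regions.

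**Figure D4:**
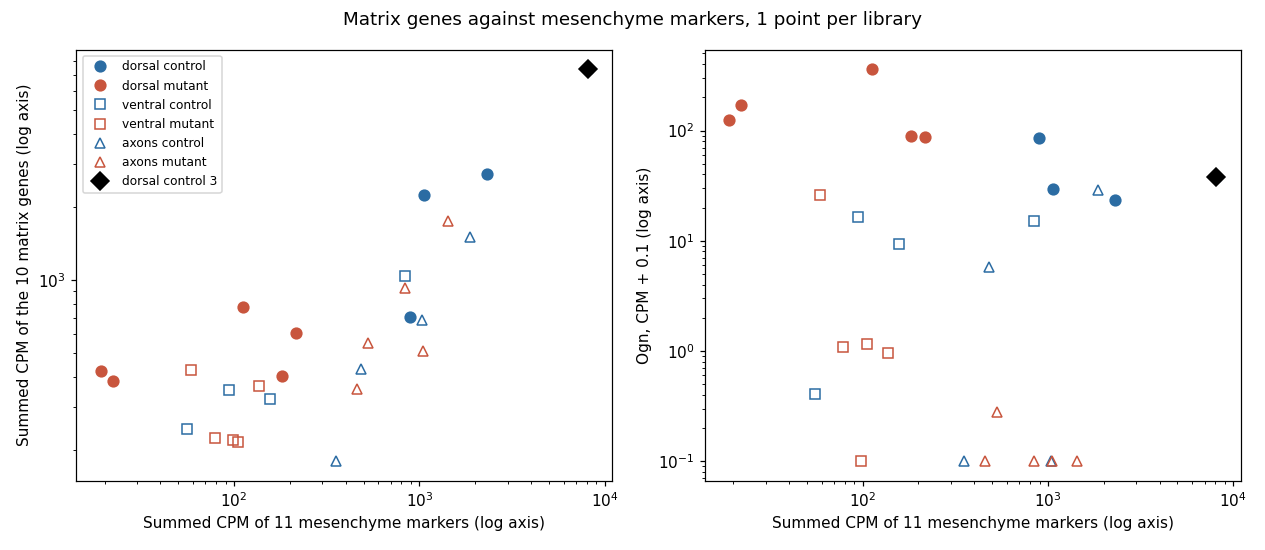
Left, the summed CPM of the 10 genes, and right, Ogn (CPM + 0.1), against the summed CPM of 11 mesenchyme markers, 1 point per library, all axes on a log scale. The 5 dorsal mutants sit at marker sums of 19.1 to 217 CPM, left of the dorsal controls at 896 to 8115 CPM, and are the highest points for Ogn.

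Ogn and other marker lists were also set side by side. The 6 mural markers (Rgs5, Acta2, Tagln, Cspg4, Kcnj8 and Abcc9) summed to 10.5 to 154 CPM in dorsal controls and to 24.7 to 235 CPM in dorsal mutants, which overlapped. Dorsal mutant 3, the library with the most Ogn at 361 CPM, also had the highest mural sum at 235 CPM, all of it from Acta2. Rgs5 was at 0 in 3 of the 5 dorsal mutants. Its edgeR estimate was nevertheless higher in dorsal mutants, with a log2 fold change of 3.01 ± 2.80 (SE, unadjusted p of 0.310). That of Acta2 was 0.10 ± 3.59 (SE). Abcc9, Kcnj8 and Cspg4 had lower estimates, of -2.86 ± 2.90, -1.34 ± 5.46 and -0.77 ± 3.28 (SE). The 6 melanin genes all had higher estimates in dorsal mutants, 1 of them at an unadjusted p under 0.05, with summed levels of 2882 to 11499 CPM against 39.5 to 4691 CPM in dorsal controls. All 8 endothelial markers had lower estimates, none at an unadjusted p under 0.05, with a median log2 fold change of -1.71. The part of these cells in the level of Ogn was not tested.

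The other marker lists gave mixed directions in the dorsal comparison. Of 6 erythroid genes 5 were lower, of 6 macrophage genes 4 were higher, of 7 OS neuroepithelium genes 4 were lower and of 6 axon genes 4 were higher, with 1 of these at an unadjusted p under 0.05, the macrophage receptor gene Csf1r. Both tested genes of the cartilage list, Sox9 and Col2a1, were lower at an unadjusted p under 0.05 by edgeR. Sox9 is not particular to cartilage. By antibody labelling the paper found it in the dorsal OS of controls, as an astrocyte progenitor marker, and much less of it in mutants. By edgeR 0 genes of any marker list were called.

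In the ventral OS Tgfbi, Bgn, Dcn and Postn were at or near 0 in most libraries of both genotypes. Tgfbi was at 0 in all 4 ventral controls and reached 4.55 CPM in ventral mutants, and Bgn stayed at or below 1.60 CPM in both groups. Dcn was at 0 in 3 of the 4 ventral controls and at 280 CPM in ventral control 3, while the ventral mutants had 0, 0, 0.0294, 0 and 2.69 CPM. Fbln1 and Fn1 were detected throughout. Fbln1 had 146, 133, 145 and 166 CPM in ventral controls, within a narrow range, and 378, 90.2, 234, 44.4 and 157 CPM in ventral mutants. Fn1 had 94.4 to 328 CPM in ventral controls and 7.36 to 167 CPM in ventral mutants, which overlapped.

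By edgeR 0 of the 9 genes tested were called in the ventral comparison, where 0% of 16139 genes were called. At an unadjusted p under 0.05 there were 0, against 1.28% of all genes higher and 1.91% lower. DESeq2 called Lum and Cthrc1 lower, against 1.41% of all genes, while within batch A alone both edgeR estimates were above 0, at 12.18 and 2.80. The median log2 fold change was -2.36 for the 9 genes and -0.08 for all genes. Ventral control 3 had the highest ventral control level of Dcn, Lum, Postn, Cthrc1 and Fn1, and its mesenchyme markers, at 839 CPM, were also the highest of the ventral controls, whose range was 55.5 to 839 CPM. In ventral mutants these markers summed to 58.8 to 136 CPM. A count was seen for 11727 genes in ventral control 3 and for 14297, 14342 and 16810 genes in ventral controls 1, 2 and 4.

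In the axon-rich region all members but Fmod were detected in both genotypes, with wide spread. Dcn had 475, 18.5, 277 and 39.8 CPM in controls and 61.6, 383, 144, 75.5 and 105 CPM in mutants. Lum had 188, 27.8, 79.0 and 62.8 CPM in controls and 157, 462, 78.1, 94.8 and 16.5 CPM in mutants. For both genes the mutants lay within or around the range of the controls. Cthrc1 averaged 122 ± 128 CPM (SD, n = 4) and 187 ± 163 CPM (SD, n = 5).

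Of the 9 genes tested Ogn was the least detected in the axon-rich region. It had 28.7, 0, 0 and 5.73 CPM in axon controls and 0, 0, 0, 0 and 0.177 CPM in axon mutants, so the groups overlapped at 0. Its log2 fold change, fitted near the limit of detection, had an unadjusted p of 0.0787 and an adjusted p of 0.880 by edgeR. In the axon comparison edgeR called 0 of the 9 genes tested and 0% of the 14977 genes. At an unadjusted p under 0.05 there were 0 members, against 0.861% of all genes higher and 2.68% lower, and DESeq2 called 0. The median log2 fold change was 0.07 for the 9 genes and -0.29 for all genes. The mesenchyme markers summed to 353 to 1871 CPM in axon controls and 458 to 1437 CPM in axon mutants.

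Within controls the dorsal OS had the highest mean of the 3 regions for all 10 genes. Tgfbi gave the sharpest contrast, with 63.4 to 729 CPM in every dorsal control and 0 in every ventral control. With the ventral group set at 3 counts per library, the means differed 1436-fold, or 601-fold without dorsal control 3. These folds cover counting error only and set no lower limit for the tissue. The adjusted p of Tgfbi was 0.0817 by edgeR. Cthrc1 had 109 to 1166 CPM dorsally and 3.12 to 42.0 CPM ventrally, a log2 fold change of 4.12 ± 0.85 (SE, adjusted p of 0.615 by edgeR). Tgfbi, Cthrc1, Lum and Ogn were higher in all dorsal than in all ventral controls, as were 1.32% of all genes. The members with the smallest dorsal to ventral ratio of means were Fn1, at 2.39, and Fbln1, at 3.14.

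Of the 9 genes tested edgeR called 0 between dorsal and ventral controls, where 0% of 16118 genes were called, and 4 were higher at an unadjusted p under 0.05 (3.4% of all genes). DESeq2 called Bgn, Tgfbi and Cthrc1 higher, against 0.931% of all genes. All 9 estimates were higher dorsally, with a median log2 fold change of 3.23 against 0.01 for all genes. With the embryo as a block 6 were higher at an unadjusted p under 0.05, against 1.22% of all genes in that fit, and 0 were called. Without dorsal control 3 the estimates for Tgfbi and Cthrc1 were 13.87 and 3.21. Dcn was called without ventral control 3, the only ventral control with a count of it. The mesenchyme markers again moved in the same direction, with all 10 tested higher dorsally and a median of 3.71, and their part was not tested.

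Between dorsal and axon-rich controls all 9 genes tested also had higher dorsal estimates, with a median log2 fold change of 2.12 against 0.29 for all genes. By edgeR 0 were called (0.00629% of 15899 genes higher and 0.0629% lower), 5 were higher and 0 lower at an unadjusted p under 0.05 (7.4% and 3.13% of all genes), and DESeq2 called 0. Lum, with a log2 fold change of 2.12 ± 0.58 (SE, adjusted p of 0.386 by edgeR), was higher in all dorsal than in all axon controls, as were 2.91% of all genes. With the embryo as a block 2 genes were higher at an unadjusted p under 0.05, against 1.59% of all genes in that fit. Without dorsal control 3 all 9 estimates were still higher dorsally, but Lum alone, at 1.80 ± 0.61 (SE), had an unadjusted edgeR p under 0.05, of 0.0141. Between ventral and axon-rich controls edgeR called 0, and Bgn, Tgfbi and Cthrc1 were lower ventrally at an unadjusted p under 0.05 (2.39% of all genes, with 6.8% higher). Tgfbi was lower in all ventral than in all axon controls (1.11% of all genes), and DESeq2 called it and Bgn, against 0.524% of all genes.

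In mutants the regional order of the members differed from gene to gene. Ogn was concentrated in the dorsal OS. It had 86.5 to 361 CPM in dorsal, 0 to 25.7 CPM in ventral and 0 to 0.177 CPM in axon mutants. Dorsal over axons was the only call among the members in the 12 comparisons, with an adjusted p of 0.000882 by edgeR, where 0.158% of the 15780 genes tested were called higher and 0.387% lower. At an unadjusted p under 0.05 Ogn was higher and Dcn lower, as were 19.1% and 4.33% of all genes. Its fitted log2 fold change of 11.63 depends on a group near the limit of detection. The means were 166 ± 114 and 0.0355 ± 0.0794 CPM (SD, n = 5 each). With the embryo as a block the adjusted p was 0.0316, within batch A 0.0161 and within batch B, with 2 mutant embryos, 0.604, and over all 16 alternative settings it ran from 2.59e-18 to 0.604.

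Dcn had the opposite arrangement to Ogn between those mutant regions. Its 11.9 to 58.6 CPM in dorsal mutants lay below the 61.6 to 383 CPM of axon mutants, with a log2 fold change of -2.35 ± 0.70 (SE, adjusted p of 0.182 by edgeR). Of all genes 3.12% were higher and 1.06% lower in all dorsal than in all axon mutants, as Ogn and Dcn were. Against the ventral mutants both genes were higher in all dorsal mutants, as were 0.606% of all genes. The adjusted p-values were 0.381 for Dcn and 0.343 for Ogn by edgeR. Ogn was called without ventral mutant 1, which held 89.9% of the summed Ogn CPM of the ventral mutants. Between ventral and axon mutants Dcn was lower in all ventral libraries (0.842% of all genes), with an adjusted p of 0.0753 by edgeR. It was called without ventral mutant 5, which held 98.9% of the summed Dcn CPM of the ventral mutants.

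Across the regional comparisons within mutants edgeR called 0 members between dorsal and ventral (0% of genes), with 2 higher at an unadjusted p under 0.05 (6.53% of all genes) and 2 called by DESeq2 (1.65%). Between dorsal and axons DESeq2 called Ogn higher (8.69% of all genes) and Dcn lower (1.27%). Between ventral and axons edgeR called 0 (0.418% of genes were called lower), 2 were lower and 1 higher at an unadjusted p under 0.05 (4.31% and 17.5% of all genes), and DESeq2 called Dcn lower (1.42%). The 10 tested mesenchyme markers were all lower in dorsal than in axon mutants, with a median log2 fold change of -2.98.

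The difference of the genotype effect between regions was tested as an interaction over all 27 libraries, and 0 members were called. Between dorsal and ventral, where 0.00612% of 16330 genes were called lower, Fbln1, Bgn and Tgfbi had an unadjusted p under 0.05 in the direction of a more negative dorsal effect (3.72% of all genes, with 3.66% in the other direction), with adjusted p-values of 0.526, 0.569 and 0.495 by edgeR. DESeq2 called Tgfbi (1.79%). Between dorsal and axons, where 0.0122% were called in each direction, Fbln1 and Cthrc1 were negative (4.02%) and Ogn positive (7.65%) at an unadjusted p under 0.05, with adjusted p-values of 0.289, 0.318 and 0.233. DESeq2 called Cthrc1 (3.18%) and Ogn (5.91%). Between ventral and axons, where 0% were called lower, Dcn was negative (3.5%) and Tgfbi positive (6.86%) at an unadjusted p under 0.05, with adjusted p-values of 0.381 and 0.359, and DESeq2 called 0. Without control embryo 3 the Dcn estimate turned from -6.66 to 6.39. With the embryo as a block 0 members had an unadjusted p under 0.05 between ventral and axons, against 0.961% of all genes lower and 2.93% higher. In that fit Fbln1 and Bgn were negative between dorsal and ventral (1.01%, with 1.28% positive), and Fbln1 was negative (1.18%) and Ogn positive (3.77%) between dorsal and axons.

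Levels of different genes were compared per kilobase of exon. In dorsal controls the order was Cthrc1, 316 ± 288 CPM per kb, then Lum at 186 ± 83.6, Dcn at 118 ± 114, Fbln1 at 106 ± 84.6, Tgfbi at 70.5 ± 83.9, Postn at 46.6 ± 63.8, Fn1 at 34.3 ± 36.2, Ogn at 17.1 ± 10.9, Bgn at 7.23 ± 7.88 and Fmod at 1.15 ± 2.30 CPM per kb (SD, n = 4). Most of these SDs were as large as the steps between neighbours. Without dorsal control 3 Cthrc1 (177 CPM per kb) and Lum (154 CPM per kb) stayed first, Fbln1 (69.6 CPM per kb) came before Dcn (63.7 CPM per kb), and Fn1 (18.4 CPM per kb) and Ogn (17.9 CPM per kb) came before Postn (15.6 CPM per kb). In dorsal mutants Ogn was the first of the 10 at 64.9 ± 44.4 CPM per kb, ahead of Fbln1 at 25.9 ± 21.1 and Cthrc1 at 17.0 ± 15.1 (SD, n = 5). Dcn was number 7 there at 5.93 ± 3.34 CPM per kb. In the ventral groups Fbln1 was first, at 33.8 ± 3.09 CPM per kb for the 4 controls and 41.3 ± 30.1 for the 5 mutants, and in the axon groups Cthrc1 was, at 76.7 ± 80.4 and 117 ± 102.

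For 9 of the 10 genes the highest group mean was that of dorsal controls, and for Ogn that of dorsal mutants. When the 6 groups were ordered by mean for each gene, the ranges of neighbouring groups did not overlap in 3 of 47 pairs. These were dorsal over ventral mutants for Dcn, and dorsal mutants over dorsal controls and dorsal over ventral controls for Ogn. All other neighbours in these orders could not be told apart by their ranges.

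The members did not move as a single block across libraries. Pearson's r of log2(CPM + 1) over the 27 libraries ran from -0.314 to 0.792 in the 45 pairs of members, with a median of 0.272. Lum with Cthrc1 and Lum with Dcn had the highest r, both 0.792. Ogn had r of 0.0616 to 0.290 with the other genes. The genes outside the list whose levels were most like the mean of the 10 were Col1a1 (r = 0.836), Nrp2 and Lgals1 (0.828 and above), Igfbp4 (0.802), Hmcn1 (0.801), Foxc1 (0.786), Lox (0.766) and Col3a1 (0.761), among 11011 genes with a mean of at least 5 CPM. Col1a1, Col3a1 and Foxc1 are also on the mesenchyme marker list.

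Other genes of the matrix were followed as lists. Of 11 other small leucine-rich proteoglycans 6 could be tested in the dorsal comparison, 4 lower and 2 higher in mutants, with 1 lower at an unadjusted p under 0.05. That gene was Prelp, which anchors basement membranes to collagen, at 33.3 ± 36.6 CPM (SD, n = 4) in dorsal controls and 0 in all 5 dorsal mutants. Aspn and Omd, 2 relatives in the same family as Ogn, did not follow it. Omd was at 0 in dorsal mutants 3 and 5, at 0.0917 and 0.119 CPM in dorsal mutants 1 and 2 and at 24.5 CPM in dorsal mutant 4, and Aspn reached 0.495 CPM at most in dorsal mutants. Epyc was detected in dorsal controls 2, 3 and 4 at 4.59, 40.1 and 17.6 CPM, in dorsal mutant 4 at 6.69 CPM and in no other library, and Kera, the corneal proteoglycan, had no count in any library.

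Of 24 other fibulins and matricellular glycoproteins 21 were tested, 13 lower and 8 higher in dorsal mutants, with 3 lower and 1 higher at an unadjusted p under 0.05. The lower ones were Emilin1, an elastic fibre protein, at 109 ± 137 against 5.89 ± 8.38 CPM, Matn2 at 60.3 ± 50.3 against 2.71 ± 6.03 CPM, and vitronectin (Vtn) at 51.7 ± 49.6 CPM against 0 in every mutant (SD, n = 4 and 5). Fbln7, a relative of Fbln1, was at 0 in all dorsal controls and at a mean of 7.15 CPM in dorsal mutants. Of 21 genes that process and crosslink matrix 19 were tested, 16 lower and 3 higher. Lox, the collagen crosslinking enzyme, averaged 242 ± 226 CPM in dorsal controls and 6.46 ± 11.2 CPM in dorsal mutants, and Pcolce2, an enhancer of procollagen cleavage, was at 0 in dorsal controls and at 12.2 ± 17.4 CPM in dorsal mutants.

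Of 19 integrins and other matrix receptors 18 were tested, 13 lower and 5 higher, with the collagen receptor subunit Itga11 and Itgb5 lower at an unadjusted p under 0.05. Itga11 averaged 17.0 ± 15.2 CPM (SD, n = 4) in dorsal controls and was at 0 in all dorsal mutants. Of 22 genes of glycosaminoglycan chain synthesis 21 were tested, 10 lower and 11 higher. Chst3, which sulfates chondroitin, had the smallest p of these lists, at 44.6 ± 30.4 CPM in dorsal controls and 0.0119 ± 0.027 CPM in dorsal mutants (SD, n = 4 and 5, adjusted p of 0.261 by edgeR). By edgeR 0 genes of these 5 lists were called in the dorsal comparison. The median log2 fold changes were -3.32 for the proteoglycans, -1.89 for the fibulins and matricellular glycoproteins, -0.96 for processing, -0.54 for receptors and 0.03 for chain synthesis, against -0.04 for all genes.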

How the data were processed

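The authors collected regions of the OS by laser capture from cryosections, amplified cDNA with Smart-Seq2 and ran Seq2Science at its default settings, in which STAR mapped the single-end reads (mm10) and HTSeq counted them per gene. Versions, annotation and strand setting are not given in the sources used here. The deposited values are whole-number counts per gene for 27 libraries, not normalized, with 0 columns left unused and 0 pairs of identical libraries. CPM was computed from the library totals. Gene models of GENCODE M21 named 55227 of 55487 identifiers, and the 260 others held 0.00287% of the counts.

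Genes over 10 counts in 3 or more libraries were tested with the edgeR quasi-likelihood test (edgeR 4.0.16, R 4.3.3, TMM scaling, Benjamini-Hochberg adjustment). Genotypes were compared within each region with batch as a term, regions within each genotype, and the difference of genotype effects between regions over all 27 libraries. A call needed an adjusted p below 0.05 and a log2 fold change beyond 0.58 either way. DESeq2 1.42.0, RLE scaling, no filter, no batch term, single batches, a replicate block and leaving out each library were the alternatives. The edgeR script was tested on simulated data. The authors' labels give a replicate number but no embryo identifier, and regions of 1 genotype with the same number were taken as 1 embryo. Their deviations from the group means correlated at -0.0195 to 0.115 in 27 pairs. Embryos are separate animals with 1 library each per region. The p-values of the genotype comparisons within a region thus measure the spread between embryos together with differences in cutting and amplification. The main fits between regions and of the interactions had no embryo term and treated regions of 1 embryo as independent. Their p-values mix the spread within and between embryos. The 10 genes, the marker lists and the other matrix lists were chosen with earlier results of these data known. The text names all 10 genes, up to 5 genes per list with the smallest dorsal p, and the 8 genes most like the mean of the 10. Ranges, neighbours and per-kilobase levels are descriptions.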

Additional observations from a re-analysis of the deposited data

Results flagged for a closer look

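In 55 groups of 4 or 5 libraries the log2(CPM + 1) of 1 library was compared with the rest, and in 12 of them the highest or lowest library lay beyond Dixon's critical value, where chance gives about 5% of groups. Most of these are single libraries with signal where the others of the group had almost none. Dcn in ventral control 3 was at 280 CPM with 0 in the other 3 ventral controls, and Dcn in ventral mutant 5 was at 2.69 CPM with at most 0.0294 CPM in the others. Ogn in ventral mutant 1 was at 25.7 CPM, with at most 1.05 CPM in the others, and Ogn in axon mutant 5 was at 0.177 CPM with 0 in the others. Postn in ventral mutant 3 was at 18.1 CPM with 0 in the others, and Tgfbi in ventral mutant 2 at 4.55 CPM with at most 0.441 CPM in the others. Fmod in dorsal control 1 was at 15.2 CPM with 0 in the others. Bgn in dorsal mutant 5 was at 2.53 CPM with at most 0.179 CPM in the others, and Bgn in ventral control 4 was at 0.311 CPM with 0 in the others.

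Low libraries were flagged in 3 groups. Cthrc1 in ventral control 1 was at 3.12 CPM, where the others had 34.3 to 42.0 CPM. In axon mutant 4 Cthrc1 was at 0 with 116 to 438 CPM in the others, and Fn1 was at 0.175 CPM with 73.8 to 222 CPM in the others. Dorsal control 3 was not among these libraries for any gene, since on the log2 scale the other dorsal controls were also spread widely. The mean log2 level of the members was 4.92, 6.86, 7.95 and 6.79 in dorsal controls 1 to 4. Without dorsal control 1 all dorsal mutants were lower for Bgn, Postn and Fbln1 as well as for Dcn, Lum and Cthrc1. Without dorsal control 3 this held for Dcn, Lum and Cthrc1, as with all libraries. The shares of all genes without these libraries are not given here.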

How the results depend on the processing

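Over the 9 genes tested in the dorsal genotype comparison and the genes at an unadjusted p under 0.05 in the others, 36 results in all, 523 alternative values gave 485 with the same direction and side of the threshold, 31 that passed it, 1 that no longer did and 6 of opposite sign. The other 72 results were less stable, with a sign opposite to the main estimate in 85 of 1068 alternative values, spread over 34 results, among them Lum (-10.90 to 12.18) and Cthrc1 (-12.44 to 2.80) in the ventral genotype comparison. DESeq2 called 4 members in the dorsal genotype comparison and 2 in the ventral one, 3 between dorsal and ventral controls, 2 between ventral and axon controls, 2 between dorsal and ventral mutants, 2 between dorsal and axon mutants, 1 between ventral and axon mutants, and 1 and 2 in the interactions of dorsal with ventral and with axons, where edgeR called 0 except 1 between dorsal and axon mutants. Without the filter edgeR called 5 members lower in the dorsal comparison, against 0.247% of all genes. It called 1 higher between dorsal and ventral controls (0.0376% of all genes) and 1 higher between dorsal and axon controls (0.02%). In the interactions it called 1 lower for dorsal with ventral (0.0273%) and 4 lower for dorsal with axons (0.115%). For ventral with axons it called 1 lower (0.0698%) and 1 higher (0.1%). Without the batch term Dcn was called in the dorsal comparison, making 1, with an adjusted p of 0.0422. Batch A alone gave 1 call between ventral and axon mutants, and batch B alone 0 between dorsal and axon mutants. With a library left out the counts were 0 to 1 between dorsal and ventral controls, dorsal and ventral mutants, and ventral and axon mutants. In each case the library left out held most of the called gene's level in its group. The shares of all genes called in these fits and in the single batches are not given here. The signs turned for Fbln1 (1.56) and Fn1 (3.45) in batch A alone in the dorsal comparison, for Fn1 without dorsal mutant 4 (0.81), dorsal mutant 5 (0.45) or dorsal control 3 (0.02), with a range of -2.15 to 0.81 over the libraries left out, and for Dcn in the interaction of ventral with axons without control embryo 3 (6.39), with a range of -11.46 to 6.39. The cause was not tested. Over all genes DESeq2 called 177 higher and 355 lower in the dorsal comparison against 1 and 1 by edgeR, and edgeR called 36 and 65 without the filter and 2 and 6 without the batch term. In the ventral comparison DESeq2 called 115 and 227 and in the axon comparison 212 and 1021, against 0 by edgeR. Replicate numbers shared between controls and mutants mark different animals, and numbers 2 and 3 join a control of batch B to a mutant of batch A. With these numbers as a replicate block and no batch term, 0 members were called in the dorsal comparison. At an unadjusted p under 0.05 by edgeR 6 were lower and 1 higher, against 1.5% and 1.26% of all genes. These blocks are arbitrary, so their counts do not check the dorsal result. The replicate block of the embryo kept the call of Ogn between dorsal and axon mutants (adjusted p of 0.0316 by edgeR) and changed no other call of a member. A gene under 3 counts per library cannot be told from 0, which limits Bgn, Tgfbi, Dcn and Postn in the ventral region and Ogn in the axon-rich region.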
